A study of Mus musculus with 5 samples.

Results

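The regions described here were the distal regions of open chromatin that carried an ATAC-seq peak in all 5 forelimb libraries. Peaks of the 5 lists that shared at least 1 bp on chromosomes 1 to 19 were merged into 85522 regions. Of these, 19128 held a peak in every library (22.4%). The 8088 members were the 19128 shared regions that also lay more than 1 kb from both ends of every protein-coding gene, and the remaining 11040 shared regions are called gene-end regions. ATAC-seq uses a transposase that cuts accessible DNA, and a peak marks a site cut more often than the background of its own library. Each library was made from the anterior part of both forelimbs of 1 mouse embryo at E11.5 (40 to 48 somites), with 50K cells per library from individually genotyped embryos. The 3 mutants carried PrxCre/+;Smarcc1c/c, and the 2 controls carried the same conditional Smarcc1 alleles without Cre (Prx+/+;Smarcc1c/c). Prx-Cre acts in limb mesenchyme, so ectoderm, vessels, blood, nerve and the muscle lineage in the same bud are not its targets. The series concerns the need for the SWI/SNF complex in repression by GLI proteins in the anterior limb bud. Members were chosen by the presence of a peak in each list, so their presence in the mutants is a description and not a result.

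The product of Smarcc1 is BAF155, part of the core of the SWI/SNF complex in mammals (BAF), which uses ATP to move nucleosomes and to keep enhancers open. Enhancers lie away from gene starts, tend to be open in particular tissues and are bound by tissue-specific transcription factors. Other distal sites are open in most tissues, among them alternative gene starts rich in CpG dinucleotides, sites of the architectural protein CTCF, and genes transcribed by RNA polymerase III such as tRNA genes.

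Sequence was at hand for RefSeq start windows, which run from 250 bases before to 50 bases after an annotated transcription start (build GRCm38.p6, the coordinates of mm10). Of the 7808 members on chromosomes analysed for windows, 1382 overlapped at least 1 such window (17.7%). The following 7 windows were chosen after their values were seen, to show how start windows of members differed in CpG content and where a CTCF-like motif lay. In the first 5, every CpG dinucleotide is in capitals. Ptch1 encodes the Hedgehog receptor and Stag1 a cohesin subunit, and both windows lay in members. The Col9a1 window, at an internal start of a cartilage collagen gene, and the Asb4 window, in a gene expressed in the limb bud, lay in members with lower rank in every mutant. The Nup93 window lay in a region with a peak in both controls and in no mutant. In the last 2, of lncRNA genes in members far from protein-coding gene ends, the capitals mark a match to a CTCF-like motif, the core of the letters bound by CTCF, on the reverse strand.
Ptch1 (chr13:63565686-63565985, minus strand): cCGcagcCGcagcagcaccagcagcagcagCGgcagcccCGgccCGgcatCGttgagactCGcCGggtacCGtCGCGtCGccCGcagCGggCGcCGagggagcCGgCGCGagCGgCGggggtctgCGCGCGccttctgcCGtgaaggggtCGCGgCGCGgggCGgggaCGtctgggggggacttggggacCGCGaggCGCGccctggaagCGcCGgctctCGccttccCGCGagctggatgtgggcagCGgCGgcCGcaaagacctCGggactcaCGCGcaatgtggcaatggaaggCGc
Stag1 (chr9:100643198-100643497, plus strand): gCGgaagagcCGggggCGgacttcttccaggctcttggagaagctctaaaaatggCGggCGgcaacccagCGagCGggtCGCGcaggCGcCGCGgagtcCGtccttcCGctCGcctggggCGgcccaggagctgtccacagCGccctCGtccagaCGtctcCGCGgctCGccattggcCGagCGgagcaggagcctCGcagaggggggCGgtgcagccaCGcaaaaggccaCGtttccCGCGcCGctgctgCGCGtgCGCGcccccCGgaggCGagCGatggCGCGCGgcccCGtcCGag
Col9a1 (chr1:24194953-24195252, plus strand): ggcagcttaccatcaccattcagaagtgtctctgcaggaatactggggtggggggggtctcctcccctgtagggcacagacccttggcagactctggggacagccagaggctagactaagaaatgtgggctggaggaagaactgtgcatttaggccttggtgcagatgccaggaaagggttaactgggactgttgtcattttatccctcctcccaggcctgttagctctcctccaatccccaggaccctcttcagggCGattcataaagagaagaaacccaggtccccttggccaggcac
Asb4 (chr6:5390160-5390459, plus strand): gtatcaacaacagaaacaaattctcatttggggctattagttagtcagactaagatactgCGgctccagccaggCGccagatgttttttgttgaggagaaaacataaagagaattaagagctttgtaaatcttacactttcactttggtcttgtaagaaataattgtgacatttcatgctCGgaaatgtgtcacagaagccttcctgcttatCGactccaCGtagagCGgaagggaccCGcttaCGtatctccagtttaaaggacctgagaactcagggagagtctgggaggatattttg
Nup93 (chr8:94266597-94266896, plus strand): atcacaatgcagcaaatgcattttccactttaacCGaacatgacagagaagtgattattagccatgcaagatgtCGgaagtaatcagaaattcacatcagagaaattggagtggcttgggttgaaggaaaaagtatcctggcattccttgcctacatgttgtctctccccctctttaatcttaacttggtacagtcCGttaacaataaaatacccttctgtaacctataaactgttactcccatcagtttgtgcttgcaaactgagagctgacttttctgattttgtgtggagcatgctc
Gm26901 (chr1:7398047-7398346, minus strand): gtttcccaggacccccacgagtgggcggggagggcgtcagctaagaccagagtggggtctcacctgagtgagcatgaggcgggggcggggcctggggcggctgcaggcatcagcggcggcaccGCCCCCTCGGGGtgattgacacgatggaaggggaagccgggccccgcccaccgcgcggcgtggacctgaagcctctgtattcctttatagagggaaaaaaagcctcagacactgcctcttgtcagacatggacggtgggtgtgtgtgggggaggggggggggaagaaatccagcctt
Gm29908 (chr16:72663017-72663316, minus strand): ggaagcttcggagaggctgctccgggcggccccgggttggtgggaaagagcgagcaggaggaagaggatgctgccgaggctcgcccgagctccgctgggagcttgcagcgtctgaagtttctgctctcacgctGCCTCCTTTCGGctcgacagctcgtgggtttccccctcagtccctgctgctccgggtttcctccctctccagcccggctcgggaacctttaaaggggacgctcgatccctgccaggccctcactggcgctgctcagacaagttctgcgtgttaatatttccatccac

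The Ptch1 window held 47 CpG dinucleotides and the Stag1 window 43, against 1 in the Col9a1 window, 8 in the Asb4 window and 3 in the Nup93 window. The CpG ratio, observed over expected from the C and G content, was 1.09 for Ptch1 and 1.06 for Stag1, and 0.0431 for Col9a1, 0.602 for Asb4 and 0.247 for Nup93. If a gene had several such windows, the highest ratio was taken for Ptch1 and Stag1. For Col9a1, Asb4 and Nup93 the lowest was taken, so the contrast between these windows is partly one of choice. The member over the Ptch1 start (chromosome 13, 63562901 to 63569506) showed folds of 9.41, 10.7 and 8.91 in mutants 1, 2 and 3, and 11.3 and 12.1 in controls 1 and 2. Fold here is the authors' enrichment of a peak over the background of its own library, and it is used only to describe and rank regions within a list. The member over the Col9a1 start (chromosome 1, 24194880 to 24197121) showed folds of 5.09, 6.57 and 4.71 in the mutants, and 10.6 and 10.9 in the controls, without overlap. The Nup93 region showed folds of 7.28 and 5.52 in controls 1 and 2. The Gm26901 member lay 223.8 kb from the nearest protein-coding gene end, at Pcmtd1, with folds of 12.96, 13.1 and 14.8 in the mutants, and 17.2 and 16.4 in the controls.

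The lists differed in length, and mutant 3 stood apart. On chromosomes 1 to 19 there were 35988, 42185 and 26581 peaks in mutants 1, 2 and 3, against 68009 and 59252 in controls 1 and 2. The read depth is unknown. Members made up 43.4%, 33.9% and 69.9% of the distal regions with a peak in mutants 1, 2 and 3, against 16.4% and 19.9% in controls 1 and 2. Of the 5189 distal regions with a peak in exactly 4 libraries, mutant 3 was the library without a peak at 3727 (71.8%). Without mutant 3 the rule would have taken 11828 regions. All the 20 genes of a limb mesenchyme list had a peak within 1 kb of a gene end in mutants 1 and 2 and in both controls, and 17 of 20 in mutant 3. Such a peak lay at 13, 13 and 8 of 17 ectoderm markers in mutants 1, 2 and 3, and at 14 and 14 in the controls. For the 17 endothelial markers it was 11, 12 and 11 in the mutants, and 14 and 11 in the controls. Trp63 of the ectoderm list and Emcn, Cdh5 and Pecam1 of the endothelial list had none in any library. Stag1, Nipbl and Rad21 of a list of architecture proteins had none either.

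Members were weaker and shorter than gene-end shared regions in every library. Their median fold was 4.78, 4.93 and 4.21 in mutants 1, 2 and 3, and 6.24 and 5.39 in controls 1 and 2. Gene-end shared regions had a median fold of 7.10, 8.05 and 6.22 in the mutants, and 8.84 and 8.22 in the controls. The ratio of the medians, members over gene-end regions, was 0.674, 0.612 and 0.676 in the mutants, and 0.706 and 0.656 in the controls. The groups overlapped, with a mean ratio of 0.654 ± 0.036 in mutants (SD, n = 3) and 0.681 ± 0.035 in controls (SD, n = 2) and a difference of -0.027 (two-sided exact permutation p = 0.6). With 3 against 2 libraries the smallest p this test can give is 0.2.

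**Figure D1:**
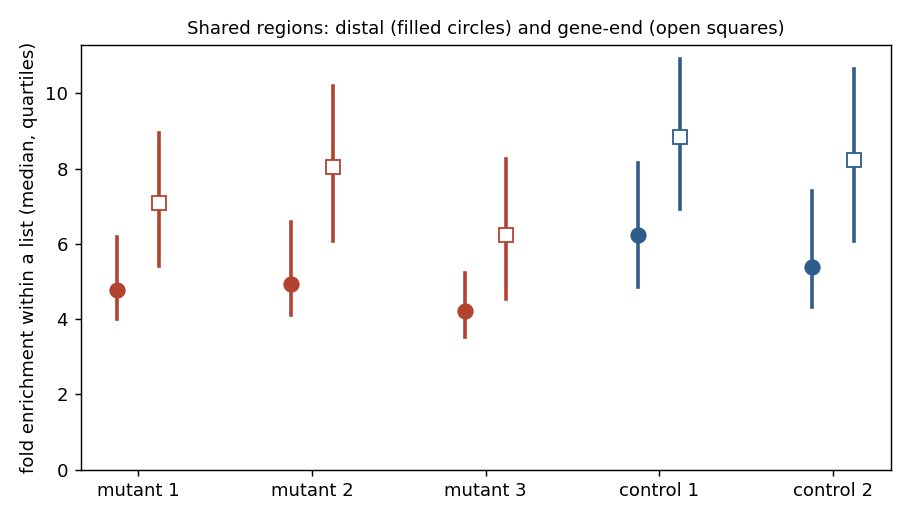
Fold enrichment within each list (vertical axis, linear) of members (filled circles) and gene-end shared regions (open squares) in each library, mutants in red and controls in blue; markers are medians and bars run between the quartiles. In every library the members' median lay below the gene-end median, by a ratio between 0.612 and 0.706.

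The stretch of open chromatin called at a member was shorter in each mutant than in either control. The median summed peak length was 698, 704 and 499 bp in mutants 1, 2 and 3, and 903 and 797 bp in controls 1 and 2. The difference of -216 bp had an exact permutation p of 0.2, the smallest possible. Gene-end shared regions differed by nearly the same length, -217 bp, with 1217, 1252.5 and 969 bp in the mutants, and 1415 and 1312 bp in the controls (exact permutation p = 0.2). Relative to gene-end shared regions of the same list, member length was 0.574, 0.562 and 0.515 in the mutants, and 0.638 and 0.607 in the controls (exact permutation p = 0.2). More than 1 peak was called at 1074, 1022 and 897 members in the mutants, and at 729 and 809 in the controls (exact permutation p = 0.2). Mutant 3 had the shortest members, and without it the length difference was -163 bp. Summits lay close together: the median distance between the strongest summits of a member was 76 to 88 bp between mutants, 68 to 81 bp between a mutant and a control, and 68 bp between the controls. Across the 8088 members, the Spearman correlation of fold was 0.653 to 0.767 between mutants, 0.619 to 0.715 between a mutant and a control, and 0.839 between the controls. These correlations are across regions of the same embryos and carry no p.

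Members were set beside the other distal regions of the controls. Distance to a gene end enters the rule, and strong peaks are the more likely to be called in every list, so both are given as descriptions. Both controls held a peak at 30813 distal regions. Of these, the 8088 members held one in every mutant too (26.2%, which the rule itself fixes), 9768 in 1 or 2 mutants and 12957 in no mutant. Members lay nearer to genes, at a median of 13.3 kb from a protein-coding gene end, against 18.8 kb for regions seen in some mutants and 44.0 kb for regions seen in none. They lay inside the body of a protein-coding gene at 53.8%, against 53.7% and 50.0%. The share of distal control regions that were members was 42.1% at 1 to 2 kb from a gene end and 15.4% beyond 100 kb. It was 1.52% in the weakest decile of control strength and 85.4% in the strongest, where strength is the mean percentile of fold in the 2 control lists.

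Annotated starts, which the rule did not use within genes, were more frequent among members. A start window lay in 17.7% of members, in 4.71% of regions seen in some mutants and in 1.90% of regions seen in none. By library, the distal regions with a start window made up 9.71%, 8.09% and 13.3% of all distal regions of the list in mutants 1, 2 and 3, and 4.95% and 5.63% in controls 1 and 2. The groups did not overlap (exact permutation p = 0.2). The 1382 members with a window count in every list by the rule, and the share was higher the shorter the list. The test therefore cannot tell a difference in starts from the shorter mutant lists. Of the 1219 distal control regions at a protein-coding start window, 968 were members (79.4%). Of the 845 at an lncRNA window alone it was 414 (49.0%), and of the 27671 without a window it was 6426 (23.2%). Because members lay over 1 kb from all protein-coding gene ends, each of the 968 lay at a start inside the span of its gene, such as that of Stag1, 44.2 kb from the end of the annotated gene. Regions with a window were also stronger: of all distal control regions with the same strength as those at protein-coding windows 59.2% were members, and 39.6% for those at an lncRNA window alone. The strongest decile gave 99.5% with a protein-coding window, 94.8% with an lncRNA window alone and 80.3% without. In the fifth decile the shares were 45.1%, 16.1% and 13.5%.

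**Figure D2:**
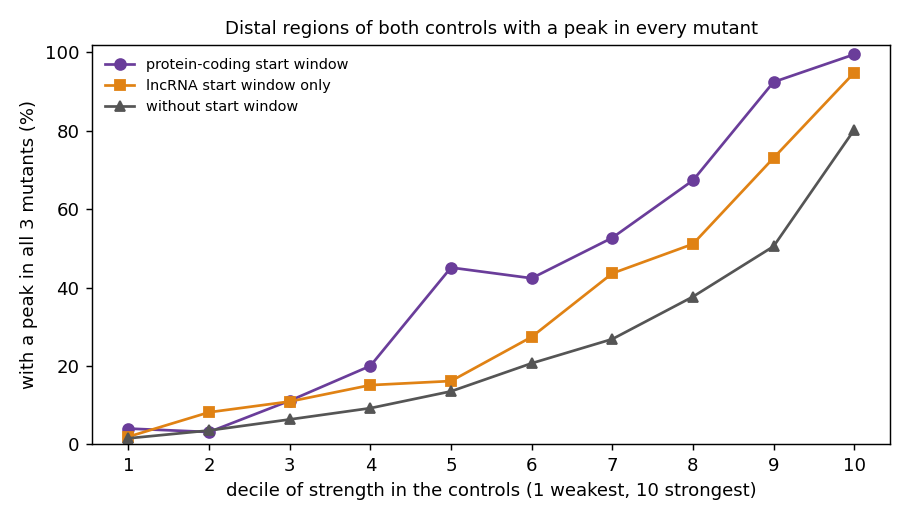
Percent of distal regions of both controls that also held a peak in all 3 mutants (vertical axis) by decile of fold rank in the controls (horizontal axis), for regions with a protein-coding start window (circles), an lncRNA start window alone (squares) and none (triangles). From the fourth decile on, the circles lie above the squares and the squares above the triangles, up to 99.5%, 94.8% and 80.3% in the strongest decile.

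The windows themselves differed in base composition. The median CpG ratio was 0.668 in the 1768 windows of members, 0.387 in 524 windows of regions seen in some mutants and 0.275 in 259 windows of regions seen in none. It was 0.802 in windows of gene-end shared regions and 0.389 in all 31396 windows. Distal control regions whose best window had a ratio over 0.6 were members at 838 of 961 (87.2%). The Ptch1 and Stag1 windows above had such a ratio, and so, narrowly, did the Asb4 window (0.602). With a ratio under 0.3, like the Col9a1 and Nup93 windows, 155 of 429 were members (36.1%). The regions with a ratio over 0.6 were also stronger in controls 1 and 2, with median folds of 8.15 and 7.28, against 4.85 and 4.18 for those under 0.3. Motifs were searched on both strands, and a match is a description and not a site. The CTCF-like motif lay in 7.89% of lncRNA windows of members, 6.48% of those of regions seen in some mutants, 1.09% of those seen in none (2 of 183) and 2.17% of all lncRNA windows. In protein-coding windows it was 6.03% for members, 14 of 200 windows for regions seen in some mutants, 3.95% for those seen in none and 4.22% for all. Over both kinds it was 6.67% for members and 6.68% for regions seen in some mutants. Windows of gene-end shared regions held the CTCF-like motif at 5.95% (lncRNA) and 6.07% (protein-coding), near the shares of members. The GC box GGGCGG, the letters bound by SP proteins, lay in 57.4% of windows of members, 33.4% and 19.3% in the other classes and 36.0% of all windows. In windows of gene-end shared regions the GC box was more frequent than in members, at 69.9%. The GLI motif GACCACCCA lay in 4 windows of members (0.226%), against 0.255% of all windows.

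Genes of small RNAs were a further group. Of 122 distal control regions within 1 kb of a tRNA gene, 98 were members (80.3%). For snRNA genes it was 40 of 57, for snoRNA genes 26 of 42 and for miRNA genes 51 of 112. Over all distal control regions the share was 26.2%. Of all distal control regions with the same strength as those at tRNA genes, 47.2% were members. At the strength of those at snRNA, snoRNA and miRNA genes it was 55.0%, 43.0% and 34.5%. The 98 regions at tRNA genes had a median fold of 6.17, 6.41 and 5.55 in mutants 1, 2 and 3, and 6.59 and 6.33 in controls 1 and 2. Their median rank among the 19128 shared regions of a list was the 53.2, 48.0 and 56.3 percentile in the mutants, and the 36.0 and 43.2 percentile in the controls. Of the 98, 38 lay on chromosome 13, which holds a large cluster of tRNA genes. The region at n-TRcct2 (chromosome 17, 23548579 to 23549348), a tRNA for arginine, showed folds of 4.47, 5.75 and 5.38 in the mutants, and 3.47 and 3.64 in the controls. Many tRNA genes have near-identical copies, and no label says how reads with several matches were placed.

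Members also covered 29 of the 1005 miRNA hairpins searched, in 27 regions. A further 23 hairpins lay in 18 regions seen in some mutants, and 5 hairpins in 5 regions seen in no mutant. Mir199a-2 and Mir199b, miRNA genes of mesenchymal tissue that lie in Dnm3 and Dnm1, share a seed (bases 2 to 8, in capitals) in their 3p product. The mature sequences are those of RefSeq. The let-7i product, of a family that rises as cells differentiate, has another seed.
mmu-miR-199a-3p: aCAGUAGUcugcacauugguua
mmu-miR-199b-3p: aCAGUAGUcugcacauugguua
mmu-let-7i-5p: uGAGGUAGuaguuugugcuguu

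The member at Mir199a-2 (chromosome 1, 162216408 to 162219206) showed folds of 8.64, 12.7 and 7.74 in mutants 1, 2 and 3, and 11.8 and 14.6 in controls 1 and 2, and the groups overlapped. Mir214, which is made from the same primary transcript, lay in a separate region (162223311 to 162223782) with folds of 3.55 and 4.93 in mutants 1 and 2, no peak in mutant 3, and 3.29 and 4.45 in the controls. The member at Mir199b (chromosome 2, 32316783 to 32320918) showed folds of 9.72, 12.8 and 7.06 in the mutants, and 10.6 and 11.99 in the controls. The member at Mirlet7i showed folds of 8.02, 12.2 and 7.91 in the mutants, and 10.6 and 8.08 in the controls. At Mir153, a miRNA of neural tissue, the folds were 3.39, 3.61 and 3.53 in the mutants, and 6.76 and 5.93 in the controls.

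To compare members between genotypes, each shared region was ranked by fold within its own list, as a percentile among the 19128 shared regions. A member is called ranked lower where all 3 mutants lay below both controls in percentile, and ranked higher where all 3 lay above both. Of the 8088 members, 1313 ranked lower (16.2%), against 11.7% of all shared regions, and 1120 ranked higher (13.8%), against 12.9%. Of the 11040 gene-end shared regions, 8.34% ranked lower and 12.1% higher. The counts carry no test, since a member had to hold a peak in every mutant to be counted and the largest falls were thereby left out. Non-overlap is easier with fewer libraries. Without mutant 1, 1858 members ranked lower and 1681 higher. Without mutant 2 the counts were 1869 lower and 2093 higher, and without mutant 3 they were 2830 and 2653. Without control 1 the counts were 2163 lower and 2246 higher, and without control 2 they were 2235 and 2109.

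Members far from genes held the larger share of lower ranks. Among the 949 members over 100 kb from any protein-coding gene end, 293 ranked lower (30.9%) and 87 higher (9.17%). At 50 to 100 kb the share ranked lower was 24.5%, at 10 to 50 kb 16.3%, at 5 to 10 kb 11.8%, at 2 to 5 kb 9.80% and at 1 to 2 kb 8.02%. The share ranked higher was 17.5% at 1 to 2 kb. The median percentile of members over 100 kb away was 30.2, 20.3 and 32.3 in mutants 1, 2 and 3, and 36.0 and 37.99 in controls 1 and 2. At 1 to 2 kb it was 33.0, 33.7 and 32.3 in the mutants, and 29.3 and 30.8 in the controls. Leaving out any 1 library gave a share ranked lower beyond 100 kb between 32.4% and 41.8%, against 16.3% to 23.9% of all shared regions. Members without a start window ranked lower at 17.2% and those with one at 11.9%. Of the 838 members with a window of CpG ratio over 0.6, 51 ranked lower and 128 higher, while of the 155 with a ratio under 0.3, 42 ranked lower and 19 higher. Of the 98 members at tRNA genes, 7.14% ranked lower and 30.6% higher. Of the 27 members at miRNA hairpins, 4 ranked lower (at Mir153, Mir7228, Mir7671 and Mir7687) and 2 higher (at Mir1983 and Mir6546). The regions of Mir1983 and Mir6546 also lay at tRNA genes (n-TItat14 and n-TGtcc1) and are already counted among the 98. Over all members 16.2% ranked lower and 13.8% higher.

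**Figure D3:**
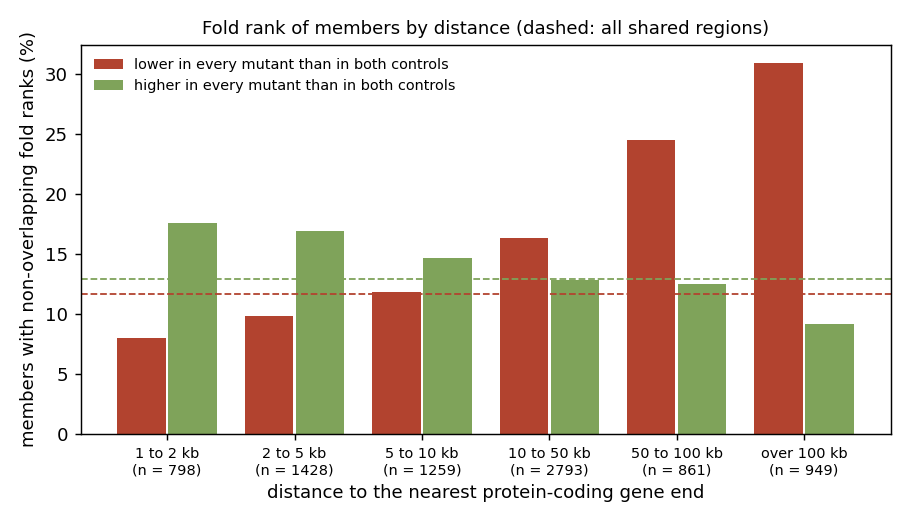
Percent of members (vertical axis) whose fold percentile lay below both controls in every mutant (red) or above both controls in every mutant (green), by distance to the nearest protein-coding gene end (horizontal axis, n under each bin); dashed lines give the same shares over all shared regions, 11.7% and 12.9%. The red share climbs from 8.02% at 1 to 2 kb to 30.9% beyond 100 kb, while the green share is 17.5% at 1 to 2 kb and 9.17% beyond 100 kb.

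The largest falls lay within or between genes and at no start window. Members are named by the nearest protein-coding gene end, which need not be the gene they act on. A fall or rise here is a difference in mean percentile, mutants minus controls, at members without overlap, and none was tested singly. The member inside Fgf10, the mesenchymal growth factor that starts and sustains limb outgrowth, lay 31.4 kb from the gene end (chromosome 13, 118746109 to 118746932). It showed folds of 2.78, 3.45 and 3.36 in mutants 1, 2 and 3, and 9.88 and 9.84 in controls 1 and 2. In percentiles this was 0.1, 4.2 and 9.2 in the mutants, and 73.6 and 77.5 in the controls. All 3 mutants lay among the weakest shared regions of their lists. The member inside Grip1, a scaffold protein of the Fras1 and Frem pathway (chromosome 10, 119761319 to 119762787), showed folds of 3.70, 3.94 and 3.20 in the mutants, and 11.1 and 10.5 in the controls. A member 232.2 kb from Nkx6-1, a homeobox gene, showed folds of 3.70, 3.61 and 3.20 in the mutants, and 9.54 and 9.97 in the controls. The member inside Mllt3, a subunit of elongation complexes, showed folds of 4.78, 3.78 and 3.03 in the mutants, and 9.36 and 11.3 in the controls. The other members of the 8 largest falls lay 584.7 kb from Fam98a, inside Pcca, 466.9 kb from Rapgef2 and inside Pex14, and none overlapped between the groups.

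Among the 5 largest rises was a short member inside Bmp5, a BMP ligand (chromosome 9, 75778885 to 75779234). Its folds were 7.87, 5.09 and 6.39 in mutants 1, 2 and 3, and 4.85 and 4.58 in controls 1 and 2. The member 11.8 kb from Hrh1, a histamine receptor, showed folds of 7.10, 8.87 and 6.56 in the mutants, and 3.99 and 5.93 in the controls. The other rises lay near Gm40369, Cd47 and Gp1bb, the last with folds of 5.25, 6.41 and 4.88 in the mutants, and 3.81 and 3.64 in the controls. The rises were smaller than the falls: the Bmp5 member moved to percentiles of 74.2, 31.2 and 66.9 in the mutants, against 13.5 and 18.7 in the controls.

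**Figure D4:**
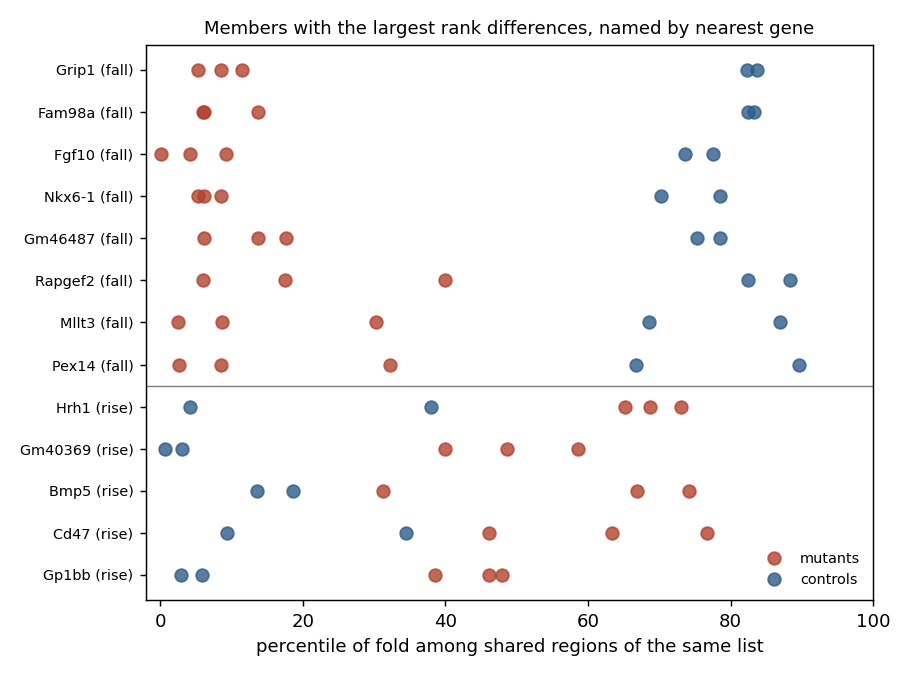
Percentile of fold among the shared regions of the same list (horizontal axis) in each mutant (red) and control (blue) library for the 8 members with the largest fall (upper rows) and the 5 with the largest rise (lower rows), each named by its nearest protein-coding gene end. The Fgf10 member lies at 0.1, 4.2 and 9.2 in the mutants and at 73.6 and 77.5 in the controls.

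The strongest members were nearly alike in all libraries. At 12 members the fold was above 20 in every library, which was the case at 0 gene-end shared regions. The strongest (chromosome 2, 98666091 to 98667450) lay 1034 kb from Lrrc4c in a stretch with no protein-coding gene, and showed folds of 45.2, 47.5 and 52.1 in mutants 1, 2 and 3, and 50.8 and 41.6 in controls 1 and 2. A pair of further strong members lay within 5 kb of it. Another (chromosome 17, 39842874 to 39848952) covered Rn18s-rs5, a copy of the ribosomal RNA gene, with folds of 42.9, 47.3 and 43.9 in the mutants, and 48.9 and 41.8 in the controls. Sequences with many copies in the genome can gather reads from all copies, and no label says how such reads were placed. The member 60.7 kb from Axin2, a WNT feedback gene, showed folds of 23.8, 26.1 and 20.9 in the mutants, and 27.1 and 22.5 in the controls. It is 1 of the 12, and which of the 12 lie in sequence with many copies was not tested. Others of the 10 strongest lay near Rpusd4, Ly6c2 and Pex2 and inside Cdk8 and Aida.

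At the other end, the weakest peaks of members had a −log10 q of 1.501, in mutant 3. The members near Mast4 and Septin9 had a fold of 2.52 there. The longest member (chromosome 11, 3184203 to 3200141) spanned 15939 bp in Sfi1, a centrosome gene, with folds of 22.4, 23.8 and 23.6 in the mutants, and 23.9 and 20.9 in the controls. Its fold was above 20 in every library, and whether it lies in sequence with many copies was not tested. The member with the most peaks lay inside Mroh2a (7810 bp), with 4, 7 and 6 peaks in mutants 1, 2 and 3, and 9 and 6 in controls 1 and 2. The member farthest from a protein-coding gene end lay 1392 kb from Tenm3 and within 1 kb of an lncRNA gene, with folds of 4.78, 4.11 and 4.71 in the mutants, and 5.90 and 4.72 in the controls. The member 1218 kb from Pcdh9 ranked lower in every mutant, at percentiles of 8.5, 6.2 and 9.2 in the mutants, and 38.2 and 64.8 in the controls. Just outside the limit of 1 kb lay members 1.001 kb from Emg1, 1.002 kb from Btn1a1 and 1.004 kb from Rab21, with folds between 2.77 and 9.36. Just inside it lay gene-end regions 0.999 kb from Gtf2i and Aox1 and 0.998 kb from Ifitm10, with folds between 2.96 and 12.1.

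By nearest gene end within 100 kb, 7139 members went to 4760 genes, out of 24654 distal control regions (29.0%). Zfp516, a zinc finger gene, had the most members, 12 of 21 distal control regions, followed by Clybl with 11 of 21. Gli2, the main activator of Hedgehog target genes, and Gins2, a replication factor, had 9 of 28 each, and Dnm3, the host of Mir199a-2 and Mir214, had 9 of 12. At Gli2, 4 of the 9 members ranked lower and 0 higher, against 16.2% and 13.8% of all members. Gli2 was not alone in this among the genes with most members. Mvb12b had 4 of 8 lower and 0 higher. Gins2 had 3 of 9 lower, Casz1 and Tns3 3 of 8 each, and all had 0 higher. More ranked higher than lower at Clybl (3 against 1), Dnm3 (2 against 0) and Tmpo (1 against 0). Zfp516 had 2 of each and Tex14 1 of each. These small counts carry no test. All 7 distal control regions of Sfi1 and of Lrrc74a were members.

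Genes of limb patterning kept some distal sites in every library, with counts near the 29.0% of all genes in most lists. Without mutant 3 the share of all distal control regions that were members was 38.4%. Without control 2 it was 16.4%, over the larger set of distal regions of control 1 alone. Most lists moved the same way, but architecture proteins stood at 62.5% both with and without mutant 3. In a list of limb mesenchyme factors 31 of 114 distal control regions were members (27.2%), 3 of them ranked lower and 2 higher. Lhx2 and Lhx9, LIM homeobox genes that mediate the response of mesenchyme to the ridge, had 4 of 9 and 4 of 8, and Tbx5, which starts forelimb development, had 2 of 20. Col1a2, a collagen gene, had 5 of 6, and Prrx1, the gene whose enhancer drives the Cre, had 0 of 3. In a list of posterior and distal genes 24 of 64 were members (37.5%). The share was 63.1% without mutant 3, and 24.5% without control 1, over the distal regions of control 2 alone. Hand2, an activator of Shh, had 6 of 10 and Dlx5 3 of 4. The Dlx5 member that ranked higher showed folds of 6.33, 5.42 and 4.04 in mutants 1, 2 and 3, and 3.81 and 2.96 in controls 1 and 2. In a list of proximal and anterior genes 28 of 104 were members (26.9%), with 5 of 9 at Tbx15, 4 of 8 at Pax9 and 3 of 4 at Shox2. Alx4 had 0 of 5 and Gli3, the main repressor of Hedgehog targets, 3 of 20.

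Of all members assigned to a gene, 14.3% ranked lower and 14.5% higher. The counts of the signalling lists are small beside these shares and carry no test. For the Hedgehog pathway and its targets 43 of 173 distal control regions were members (24.9%), and 12 of the 43 ranked lower and 4 higher. The member 7.0 kb from Gli2 (chromosome 1, 118824795 to 118827071) showed folds of 7.41, 8.05 and 6.22 in the mutants, and 12.3 and 12.7 in the controls. Both members of Gas1, a Hedgehog co-receptor, ranked lower, the stronger with folds of 7.87, 7.39 and 6.56 in the mutants, and 10.6 and 10.8 in the controls. Both members inside Smo, the signal transducer, ranked higher, the stronger with folds of 5.71, 5.42 and 3.70 in the mutants, and 4.51 and 3.91 in the controls. The single members of Ptch1 and Gli1 overlapped between the groups, and Hhip had none among its 3 distal control regions. For BMP signalling 28 of 105 were members, of which 11 ranked lower and 4 higher. Those lower included 2 of 4 at Smad6 and 2 of 3 at Id1, both targets of the pathway, and 1 of 3 at the ligand Bmp4, with folds of 5.86, 7.06 and 3.87 in the mutants, and 8.15 and 8.49 in the controls.

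For WNT signalling 27 of 140 were members (19.3%), with 6 ranked lower and 2 higher. The member inside Tcf7l1, a transcription factor of the pathway (chromosome 6, 72710483 to 72712323), showed folds of 8.18, 7.88 and 7.06 in the mutants, and 14.7 and 13.7 in the controls. For FGF signalling 21 of 80 were members, with 4 ranked lower and 3 higher. Both members inside the receptor gene Fgfr1 ranked lower, the stronger with folds of 5.09, 5.09 and 3.20 in the mutants, and 9.19 and 8.35 in the controls. Retinoic acid signalling had 15 of 76 (19.7%) and chondrogenesis 15 of 81 (18.5%), with 3 ranked lower in each. The member 2.1 kb from the end of Sox9, the regulator of cartilage, showed folds of 4.32, 3.94 and 3.70 in the mutants, and 6.07 and 5.39 in the controls. Sox5 had 0 members of 10.

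Genes used in most cells were covered by 3 lists. Of the architecture proteins, which hold CTCF, cohesin and their partners, 10 of 16 distal control regions were members (62.5%), 1 ranked lower and 2 higher. All 3 of Ldb1, a looping cofactor, and both of Wapl, which releases cohesin, were members. The Stag1 member ranked higher with folds of 11.1, 13.3 and 11.8 in the mutants, and 11.6 and 13.1 in the controls, since the ranks and not the folds are compared across lists. For housekeeping genes it was 9 of 23 (39.1%), and for BAF subunits 15 of 46 (32.6%), with 3 ranked lower and 2 higher. The share at BAF subunits was 52.2% without mutant 3, and 17.2% without control 2, over the distal regions of control 1 alone. The single distal control region of Smarcc1 was not a member.

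Genes of cell types that Prx-Cre does not target were included as lists of markers. Of the ectoderm and apical ridge markers 18 of 50 distal control regions were members (36.0%), of which 1 ranked lower and 7 higher (38.9% of the 18, against 14.5% of all members assigned to a gene). Those higher were 3 of 4 at Sp8, 3 of 4 at Tfap2a and 1 of 2 at Tfap2c. Tfap2a encodes AP-2 alpha, a factor of surface ectoderm, and its member at chromosome 13, 40722466 to 40723783 showed folds of 8.33, 9.85 and 7.57 in the mutants, and 9.02 and 7.28 in the controls. A peak within 1 kb of a gene end lay at 13, 13 and 8 of the 17 ectoderm markers in mutants 1, 2 and 3, and at 14 and 14 in controls 1 and 2. Their summed fold was 54.8, 56.7 and 30.1 in the mutants, and 70.2 and 59.0 in the controls. The summed fold of the 18 members was 99.8, 114.1 and 87.3 in the mutants, and 121.7 and 101.1 in the controls. As a set these members did not rank higher. Their median percentile was 34.4, 37.0 and 21.1 in the mutants, and 33.9 and 33.5 in the controls, with overlap. In bulk tissue more cells of a type and more open sites per cell cannot be told apart, and the part of cell numbers in these ranks was not tested. Endothelial markers had 10 of 39 members, blood markers 4 of 21, muscle precursor markers 5 of 27 and neural crest markers 6 of 34. Of the 10 endothelial members 2 ranked lower and 1 higher, and of the 6 neural crest members 3 lower and 0 higher. Blood and muscle precursor markers each had 0 lower and 1 higher. Of all members assigned to a gene, 14.3% ranked lower and 14.5% higher, and these small counts carry no test.

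**Figure D5:**
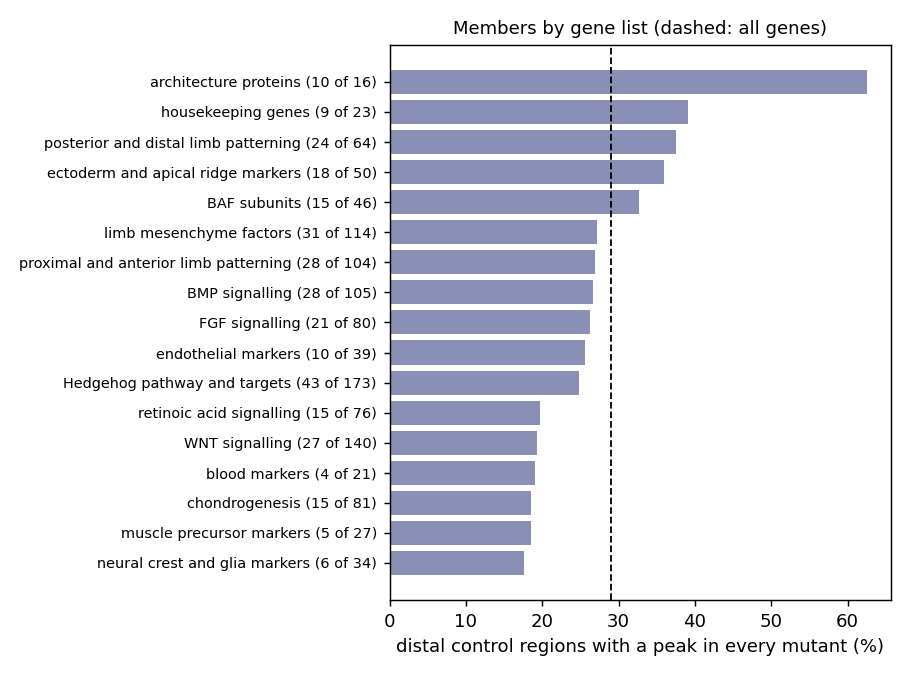
Percent of distal regions of both controls with a peak in every mutant (horizontal axis) for each gene list, with the number of members of the number of distal control regions; the dashed line is the 29.0% of all genes. Architecture proteins stand highest at 62.5% and neural crest markers lowest at 17.6%.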

How the data were processed

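Each of the 5 libraries, 3 mutants and 2 controls grouped by the genotype label, came as a peak list of its own. Per the submitters' processing notes, bcl2fastq 2.20.0, Bowtie2 2.3.5 and MACS2 were used with build mm10. No label gives caller options, duplicate removal or a shift of reads. The authors deposited for each peak a start, end and summit offset (other values, in bp), a display score (not used), a fold enrichment ratio, and −log10 p and −log10 q values. Read depth is unknown, so no counting interval or floor was formed.

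Regions, distances and within-list percentiles were computed with Python 3.11.15, pandas 2.3.3 and scipy 1.17.1. Genes, start windows and miRNAs were those of RefSeq on GRCm38.p6, which were not analysed here on chromosome 18 for windows and miRNAs. Single values per library were compared with a two-sided exact permutation test. The steps were tested on simulated lists. Members and gene lists were chosen with earlier results of these data known. Named members were the 10 strongest, 8 largest falls, 5 largest rises, 5 farthest, 5 longest, 5 with most peaks, those at the 1 kb limit, the 10 genes with most members and up to 4 genes per list, and not all are printed. Genes and regions outside this rule, start windows and miRNAs were chosen after their values were seen. A genome sequence was not used here, so a planned search for CTCF motifs at summits was not run.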

Additional observations from a re-analysis of the deposited data

How the results depend on the processing

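The number of members was 5247 at a −log10 q of at least 5 and 2194 at 10, and 8225 to 11828 with 1 library left out. The distal share of shared regions was 34.6% and 22.3% at these thresholds, 48.0% with windows around summits, 35.003% with lists of equal length, 38.1% and 30.6% at 2 and 5 kb from gene ends, 35.6% with the ends of all annotated genes, and 42.6% to 49.3% with 1 library left out. The summit distance was 63.5 and 50.5 bp at the thresholds, 60.75 bp with windows, 68.0 bp at equal length and 66 bp at regions with 1 peak per library. Members ranked lower numbered 810 and 280 at the thresholds and 1858 to 2830 with 1 library left out. Members ranked higher numbered 675 and 237 at the thresholds, 719 at equal length, 739 at 5 kb and 1681 to 2653 with 1 library left out. The share inside a gene was 58.2% at a −log10 q of 10, 55.1% at equal length, 52.5% and 50.4% at 2 and 5 kb, and 57.4% with all ends. The share at a noncoding gene end was 17.8% and 24.3% at the thresholds, 13.7% with windows, 17.9% at equal length, and 14.0% to 15.7% with 1 library left out. The share with a start window was 22.9% and 37.1% at the thresholds, 14.1% with windows, 22.7% at equal length, 16.7% and 15.7% at 2 and 5 kb, 12.7% with all ends, and 14.0% to 17.5% with 1 library left out. The cause of these shifts was not tested.

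The length difference and the fold ratio kept their negative sign under all 16 alternatives each, between -264 and -154 bp and between -0.0519 and -0.00179 with 1 library left out. Of distal control regions, 16.4% were members without control 2 (over those of control 1 alone) and 50.1% at equal length. At tRNA genes the share was 53.0% with windows around summits and 96.2% at equal length. The shares of architecture proteins, housekeeping genes and ectoderm markers lay above that of all distal control regions in 14 of 14 settings. Those of chondrogenesis, retinoic acid signalling and neural crest markers did so in 0 of 14. The lists hold only regions within 100 kb of a gene end, while all distal control regions include those farther away. In the main setting the share was 29.0% within 100 kb and 26.2% over all. Alternatives that remove starts and noncoding gene ends or the 12 strongest members, and all alternatives for start windows, tRNA genes and lists, were added after seeing the data. No paired analysis was possible because the labels give no replicate numbers that pair mutants with controls. Absence of a peak is a threshold on 1 list and does not show closed chromatin. The fold takes coarse steps, so ranks of weak members are coarse, and 3 against 2 libraries cannot give a p under 0.2.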

Other observations

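Chromosome X lay outside the rule. It held 1191 merged regions, of which 136 were distal and had a peak in every library, and 36.8% of its 370 distal control regions had a peak in every mutant.

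The longest members differed in kind. The member in Gse1 (8867 bp, nearest gene end Gins2) had 5, 7 and 5 peaks in mutants 1, 2 and 3, and 3 and 4 in controls 1 and 2. Its folds were 6.02, 6.73 and 4.71 in the mutants, and 10.6 and 7.28 in the controls. A second member in Mroh2a (5343 bp) had folds of 3.86, 4.60 and 4.88 in the mutants, and 3.99 and 3.50 in the controls.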
